A study of Mus musculus with 4 samples.

Results

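The genes described here are the voltage-gated ion channel genes of the mouse, their auxiliary subunits, and the other potassium channel genes that share the Kcn prefix. They were taken by symbol (Kcn, Scn and Cacn names of channels and subunits) from the 32285 genes of the deposited matrices. Of 132 genes whose symbol matched, 99 had at least 50 unique molecular identifiers (UMIs, one per captured transcript molecule) over the 4 libraries and are the members. Just inside that minimum lay Scn4b with 50 UMIs, Cacng1 with 53 and Kcnip4 with 54, and just outside it Cacng5 with 48, Kcnj5 with 47 and Kcna10 with 45. The members comprised 29 voltage-gated potassium alpha subunits, 12 potassium auxiliary subunits, 7 calcium- or sodium-activated and 10 inwardly rectifying potassium channels, 9 tandem-pore potassium channels, 8 sodium alpha and 4 sodium beta subunits, 8 calcium alpha1 subunits and 12 calcium auxiliary subunits.

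Single-cell RNA was measured in mouse embryos of the Swiss-Webster strain at E10.5 (34 to 36 somites). Dissected otic vesicles, the cochleovestibular ganglion (the forming ganglion of hearing and balance), adjacent neural tube and pharyngeal tissue were dissociated, and living GFP-positive cells were sorted. Embryos of both groups carried Pax2-Cre with the Rosa26-GFPf/+ reporter: control libraries (n = 2) had these alone, and the conditional knockout libraries (cKO, n = 2) added Tbx2f/f and, on top of it, Tbx3f/f. Pax2-Cre is active in the otic placode and in other Pax2-expressing cells such as the epibranchial placodes and parts of the hindbrain, so the driver is not limited to the ear. The labels name 3 control and 2 cKO embryos and pooled vesicles, and do not say how embryos were divided among libraries. The p-values below therefore rest on library-to-library spread only, part or all of which may be technical.

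Voltage-gated channels open when the membrane depolarises: sodium channels carry the upstroke of the action potential, calcium channels couple it to transmitter release and gene expression, and potassium channels end it and set firing rate. Each is built on a pore-forming alpha subunit, with beta, alpha2-delta, gamma and other auxiliary subunits that shape gating and trafficking. Inward rectifiers and tandem-pore channels lack the voltage-sensing segment and hold the resting potential. In the inner ear, neurons of the cochleovestibular ganglion acquire excitability after leaving the otic epithelium as neuroblasts, and otic epithelium later builds a potassium-rich endolymph.

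The 4 libraries held 106769747 to 128205192 UMIs, and 14399 cells were kept, from 3220 to 3869 per library, with a median of 26970 to 30081 UMIs per cell. Pairs of libraries shared 2 to 8 cell barcodes. Median mitochondrial UMIs were 2.41% and 2.96% in the controls and 1.31% and 1.38% in the cKO libraries, without overlap, and the part of this difference in the results was not tested. Cells were clustered with all 132 channel genes left out, so that the classes below do not rest on the genes described. Clusters were named from marker genes: otic epithelium-like (Epcam, Oc90 and others; 2152, 1832, 1127 and 2021 cells in control 1, control 2, cKO 1 and cKO 2), placodal sensory neuron-like (Neurod1, Isl1; 628, 720, 306 and 371 cells), epibranchial neuron-like (with Prph in its late stage; 295, 281, 220 and 353 cells) and neural tube neuron-like (135, 266, 180 and 105 cells). The placodal lineage was divided into neuroblasts (407, 354, 281 and 353 cells) and neurons (221, 366, 25 and 18 cells) by the level of Stmn2, a neuronal microtubule regulator, and the epibranchial lineage into an early and a late stage in the same way. Counts were summed per library and class, levels are given as CPM (UMIs of a gene per 1000000 UMIs of the class), always in the order control 1, control 2, cKO 1, cKO 2 where 4 values follow each other, and differences as log2 fold changes ± standard error from edgeR's quasi-likelihood test with Benjamini-Hochberg adjustment over all genes tested. A UMI marks a transcript end whatever the transcript's length, so CPM of different genes are compared without a length term. The markers that named the otic cells were themselves not level between genotypes. In otic epithelium-like cells Oc90 stood at 339, 517, 35.9 and 25.2 CPM, and the summed otic markers at 1991, 2091, 1434 and 1467 CPM. Epcam stood at 860, 745, 862 and 896 CPM.

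In otic epithelium, Tbx3 CPM were 63.3, 60.9, 22.6 and 17.6, lower in both cKO libraries (log2 fold change -1.47, adjusted p = 8.3e-05), and Tbx2 CPM were 92.8, 102, 69.2 and 67.6 (-0.35, adjusted p = 0.0054). Which exons the floxed alleles remove is not given in the sources used here, so 3′ tags outside the deleted part would check nothing. In the epibranchial lineage Tbx3 did not pass the test (26.0, 12.8, 16.9 and 21.1 CPM, 0.07, adjusted p = 0.88), while Tbx2 fell from 9.19 and 7.84 to 2.30 and 4.49 CPM (-1.15, adjusted p = 0.022).

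The promoters shown here are those of the 4 genes with the largest rises from placodal neuroblast to neuron that also rose in the epibranchial lineage and have a RefSeq window, and of Kcns3, the gene with the largest rise in cKO otic epithelium. Each window holds 250 bases before and 50 after a RefSeq transcription start (build GRCm38.p6), written on the gene's strand. Scn9a, a sodium channel alpha subunit of peripheral neurons, lies at chr2:66480080-66634962 on the minus strand, with its window at chr2:66634913-66635212. Kcnj12, an inward rectifier, lies at chr11:61022564-61071131 on the plus strand, and its window at chr11:61065554-61065853 is at a start inside the gene's outermost annotated bounds. Cacng2, which encodes stargazin, a regulator of AMPA receptors that was first assigned to calcium channels, lies at chr15:77991748-78120028 on the minus strand. Its window at chr15:78119231-78119530 is also at a start inside the outermost bounds. Cacna1e, the R-type calcium channel, lies at chr1:154390731-154884501 on the minus strand (window chr1:154725871-154726170, also inside the outermost bounds). Kcns3, a silent potassium subunit that assembles with Kcnb channels, lies at chr12:11090202-11151056 on the minus strand. Its window at chr12:11150793-11151092 is the first listed of its starts, also inside the outermost bounds. Capitals mark every E-box, the letters CANNTG on either strand, which is the core bound by basic helix-loop-helix factors such as Neurog1 and Neurod1.
Scn9a: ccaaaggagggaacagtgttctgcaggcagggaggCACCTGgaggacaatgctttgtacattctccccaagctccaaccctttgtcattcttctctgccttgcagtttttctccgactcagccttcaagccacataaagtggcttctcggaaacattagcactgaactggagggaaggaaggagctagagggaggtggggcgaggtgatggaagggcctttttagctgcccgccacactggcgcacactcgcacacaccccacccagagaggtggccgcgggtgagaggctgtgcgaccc
Kcnj12: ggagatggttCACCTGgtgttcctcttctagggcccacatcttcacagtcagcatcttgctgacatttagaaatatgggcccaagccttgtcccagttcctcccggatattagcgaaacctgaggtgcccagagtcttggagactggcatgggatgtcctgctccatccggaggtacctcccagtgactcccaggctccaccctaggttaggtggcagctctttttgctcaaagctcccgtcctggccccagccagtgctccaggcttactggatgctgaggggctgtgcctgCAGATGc
Cacng2: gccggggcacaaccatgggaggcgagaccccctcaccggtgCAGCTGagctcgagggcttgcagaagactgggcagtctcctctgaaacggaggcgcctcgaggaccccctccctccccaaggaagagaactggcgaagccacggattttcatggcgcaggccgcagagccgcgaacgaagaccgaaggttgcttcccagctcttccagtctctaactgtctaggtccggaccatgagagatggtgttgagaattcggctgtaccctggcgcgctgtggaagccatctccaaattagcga
Cacna1e: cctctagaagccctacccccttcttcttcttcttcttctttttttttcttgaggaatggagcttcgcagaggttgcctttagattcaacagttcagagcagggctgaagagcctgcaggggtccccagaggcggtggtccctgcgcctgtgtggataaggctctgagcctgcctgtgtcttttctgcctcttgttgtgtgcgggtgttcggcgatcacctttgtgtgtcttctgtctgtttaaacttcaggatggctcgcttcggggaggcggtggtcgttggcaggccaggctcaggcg
Kcns3: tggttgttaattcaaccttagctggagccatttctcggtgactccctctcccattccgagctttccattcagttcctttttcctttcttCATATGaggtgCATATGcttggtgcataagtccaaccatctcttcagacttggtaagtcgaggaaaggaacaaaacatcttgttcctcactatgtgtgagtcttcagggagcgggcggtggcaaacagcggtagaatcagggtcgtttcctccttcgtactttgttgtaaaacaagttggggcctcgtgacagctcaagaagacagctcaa

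An E-box was present in 72.3% of 32851 RefSeq windows, in 68.9% of the 103 windows of members (69 of 99 members had one), and in 52.2% of the 23 windows of genes that rose in both lineages. CAGATG, which is contained in the E-box pattern, was in 17.2%, 17.5% and 21.7% of the same groups of windows, and CAGCTG, also contained in it, in 16.3%, 26.2% and 17.4%. The letters TTCAGCACC, the left part of the element bound by the repressor Rest, were in 0.371% of all windows, 0.971% of the members' windows and 0% of those of genes that rose in both lineages. Both strands were searched for each motif. A match is a description of letters and not of binding.

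Channel transcripts were scarcer in otic epithelium and placodal neuroblasts than in neurons. Members together made up 248 CPM of the RNA of otic epithelium (mean of 4 libraries), 238 CPM in placodal neuroblasts and 661 in placodal neurons. They made up 642 CPM in early epibranchial cells, 1193 in late epibranchial neurons and 986 in neural tube neurons. The early epibranchial cells were not neurons by the Stmn2 threshold of 1000 CPM, with 542, 697, 504 and 821 CPM. Their summed neuroblast-stage markers, 4347, 4253, 3578 and 3959 CPM, lay near those of placodal neuroblasts, 4659, 4531, 3735 and 3959 CPM. Their summed neuron-stage markers, 8873, 9264, 8667 and 8653 CPM, lay far above those of placodal neuroblasts, 2089, 2355, 1237 and 1252 CPM. Placodal neurons held 12258, 12505, 8804 and 12134 CPM of these markers, so the early stages of the lineages were not matched in them. At a mean of 10 CPM or more stood 5 members in otic epithelium, 7 in neuroblasts, 18 in placodal neurons, 26 in late epibranchial neurons and 26 in neural tube neurons. Leukocyte-like cells of the same libraries, which should lack neuronal channels, held 85.3 CPM in all, led by Kcnk6 with 19.1 ± 5.12 CPM (SD, n = 4). In them Scn9a, Scn3a and Kcnc1 had no UMI and Kcnmb2 stood at 0, 0.625, 0 and 0 CPM, which is the background for the levels of these genes below. Not every member was near 0 outside neurons. Cacna1a stood at 11.1 ± 4.81 CPM in leukocyte-like and 24.0 ± 5.80 CPM in mesenchyme-like cells (SD, n = 4).

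**Figure D1:**
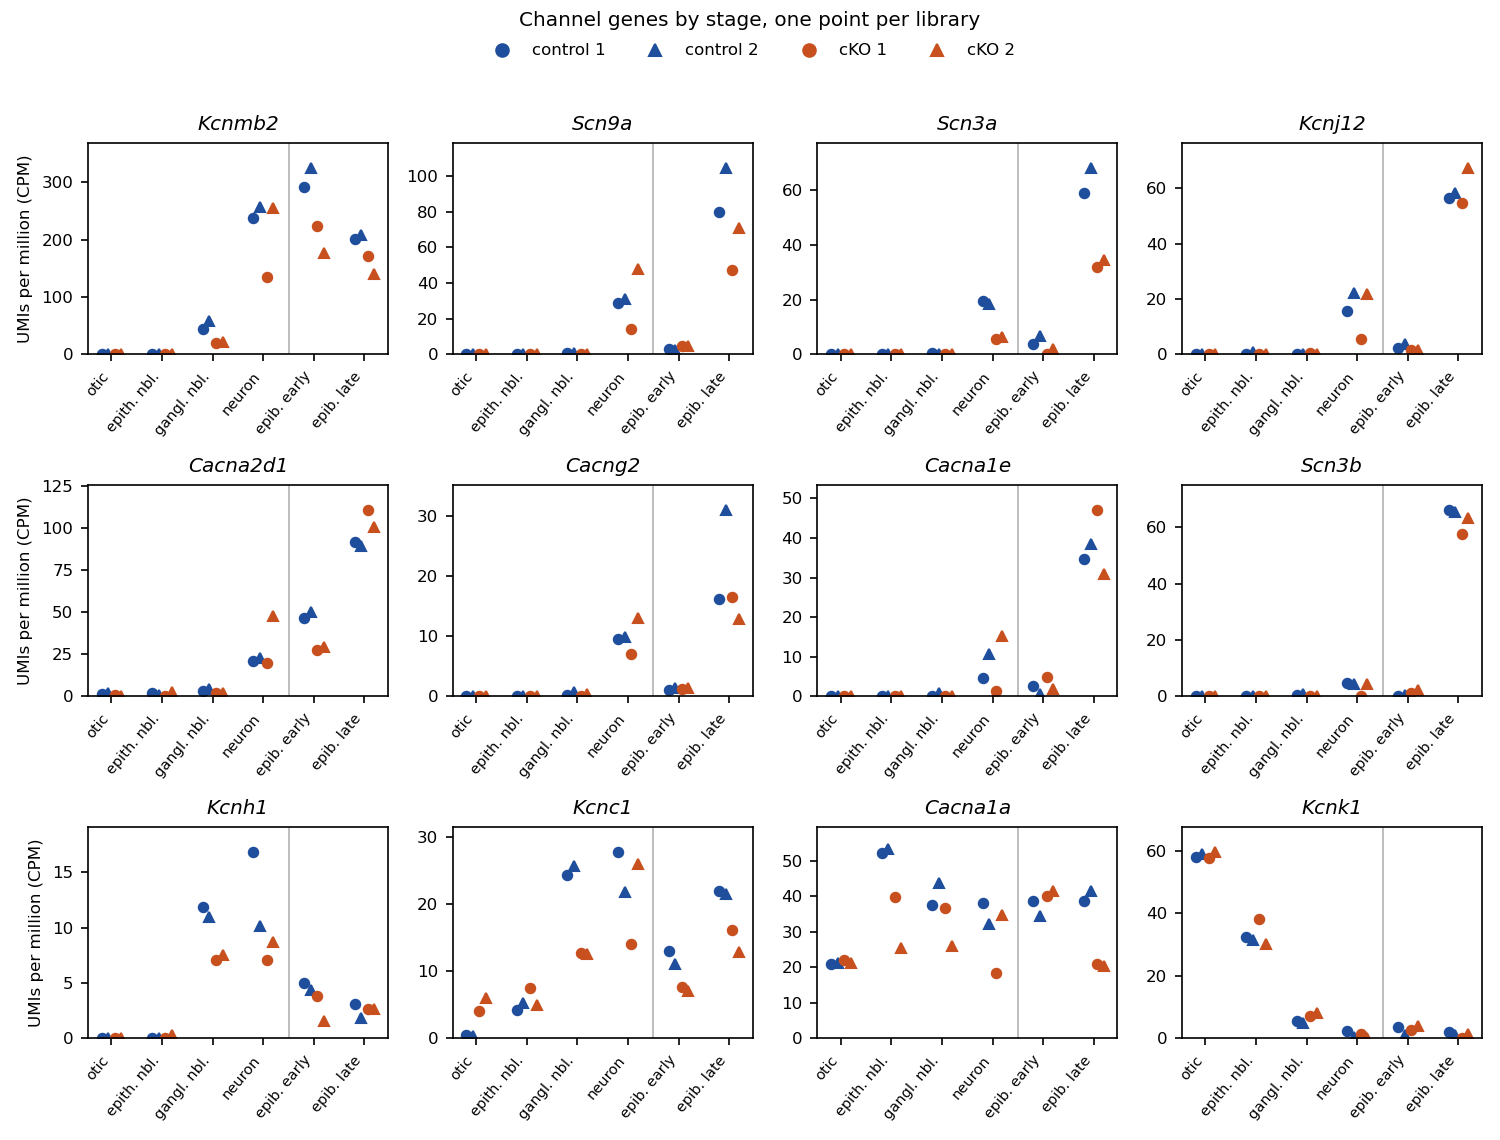
CPM (vertical axis, one panel per gene) for 12 members in otic epithelium, epithelial and ganglion neuroblasts, placodal neurons, and early and late epibranchial cells, with 1 point per library and colour for genotype. Scn9a, Scn3a and Kcnj12 sit near 0 until the neuron stages, whereas Kcnmb2 is already between 20.1 and 59 CPM in ganglion neuroblasts, and Kcnk1 runs the other way.

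Placodal neuroblasts, which leave the otic epithelium, differed from it in both directions. Of 61 members that passed the low-count filter, 18 were higher in neuroblasts (background 27% of all genes) and 25 lower (background 29.6%), with a median log2 difference of -0.49 against -0.02 over all genes. Kcnh1, an ether-a-go-go potassium channel, stood at 0.0557, 0.0351, 0 and 0.0418 CPM in otic epithelium and at 10.2, 9.55, 5.17 and 5.42 CPM in neuroblasts (6.98 ± 0.29, adjusted p = 4.5e-06). Kcnmb2, an auxiliary subunit that inactivates the large-conductance calcium-activated channel, stood at 0.738, 0.333, 0.139 and 0.251 CPM in otic epithelium and at 38.4, 51.4, 14.7 and 15.8 CPM in neuroblasts (6.27 ± 0.24, adjusted p = 3.2e-06). Both genes were higher in neuroblasts in every library, and among neuroblasts the controls were the higher pair. Kcnk12, a tandem-pore subunit (5.54 ± 0.25), Kcnb2, a delayed rectifier (3.96 ± 0.23), and the T-type calcium channel Cacna1g (3.13 ± 0.32) rose as well. Kcnc1, a fast delayed rectifier, rose by 3.08 ± 0.89 over all 4 libraries. It went from 0.445 and 0.386 to 21.7 and 23.1 CPM in the controls and from 4.12 and 5.96 to 11.3 and 10.3 CPM in cKO, so the step was larger in both controls. Cacna1a, the P/Q-type calcium channel, was already 21.1, 21.2, 22.1 and 21.2 CPM in otic epithelium and 39.5, 45, 37.6 and 25.9 CPM in neuroblasts (0.84 ± 0.13). 

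Kcnk1, a tandem-pore channel and the most abundant member of otic epithelium, stood at 58, 59.1, 57.7 and 59.7 CPM in otic epithelium and at 9.35, 8.28, 15.4 and 14.5 CPM in neuroblasts (-2.25 ± 0.15, adjusted p = 3.6e-05). Within neuroblasts it was graded: the Epcam-positive epithelial neuroblasts held 32.5, 31.6, 38.1 and 30.3 CPM and ganglion neuroblasts 5.67, 4.81, 7.08 and 8 CPM. Kcnq3, an M-current subunit, fell by 4.94 on the log2 scale (SE 0.33, adjusted p = 3.6e-05). The inward rectifier Kcnj2 had 283 UMIs in otic epithelium and 0 in neuroblasts, at least 17.2-fold lower at a floor of 3 UMIs over the group. Kcne1, an auxiliary subunit of the potassium channel that secretes into endolymph, had 330 against 2 UMIs (30.0-fold, counting interval 8.25 to 249), and Kcnj16, an inward rectifier of transporting epithelia, 278 against 3 (16.9-fold, 5.71 to 82.3). These 3 genes were at most 1.74 CPM in otic epithelium.

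Most sodium channel genes and most calcium auxiliary genes tested rose from placodal neuroblast to neuron. Of 48 members that passed the filter, 28 rose (background 23.4% of all genes) and 4 fell (27.9%), and the members' median log2 difference was 1.10 against -0.04 over all genes. Among sodium alpha subunits 4 of 5 tested rose, among sodium beta subunits 2 of 3, and among calcium auxiliary subunits 7 of 9 with 1 that fell. Voltage-gated potassium alpha subunits rose in 6 of 13. Scn9a stood at 0.59, 0.682, 0.192 and 0.169 CPM in neuroblasts and at 28.8, 30.9, 14.1 and 47.7 CPM in neurons (5.65 ± 0.26, adjusted p = 1.5e-10). Scn3a, an embryonic sodium channel, went from 0.421, 0.292, 0.0958 and 0.169 to 19.6, 18.6, 5.64 and 6.5 CPM (5.04 ± 0.27, adjusted p = 6.1e-10). Both were higher in neurons in every library, with no overlap of the stages. Scn8a, the sodium channel of mature axon initial segments, was 11, 13.6, 14.5 and 12.2 CPM in neuroblasts and 13, 13.3, 4.23 and 13 CPM in neurons, a difference that did not pass (-0.11 ± 0.18). Scn8a was also the sodium alpha subunit with the highest level in otic epithelium, at 4.45, 4.93, 6.17 and 6.09 CPM.

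Calcium channel alpha1 genes divided. Cacna1e stood at 0.0843, 0.78, 0.0958 and 0 CPM in neuroblasts and at 4.6, 10.6, 1.41 and 15.2 CPM in neurons (4.16 ± 0.48, adjusted p = 3.4e-06). Cacna1b, the N-type channel of presynaptic terminals, went from 5.73, 6.43, 7.09 and 3.73 to 24.8, 23.8, 8.46 and 13 CPM (1.70 ± 0.20, adjusted p = 3.2e-06). The T-type Cacna1h rose by 1.72 ± 0.38. Cacna1a did not share that direction: it stood at 38, 32.2, 18.3 and 34.7 CPM in neurons (-0.37 ± 0.13, adjusted p = 0.028), lower than in neuroblasts in 3 of 4 libraries. Of the auxiliary genes, the alpha2-delta subunits Cacna2d1 (2.96 ± 0.24) and Cacna2d2 (2.70 ± 0.22), Cacng2 (4.45 ± 0.38), Cacng4 (1.72 ± 0.18) and the beta subunit Cacnb3 (1.00 ± 0.11) rose. Cacnb2, another beta subunit, fell from 102 UMIs to 2 (17.5-fold, counting interval 4.72 to 146).

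Among potassium channel genes of the placodal lineage, Kcnj12 rose from 0.169, 0.195, 0.287 and 0.0847 CPM to 15.8, 22.1, 5.64 and 21.7 CPM (5.63 ± 0.32, adjusted p = 1.2e-09). Kcnmb2 rose again, to 238, 257, 135 and 256 CPM (2.79 ± 0.18, adjusted p = 5.6e-09), and was the most abundant member in placodal neurons, at 221 ± 58.1 CPM (SD, n = 4). Ganglion neuroblasts already held 44.4, 59, 20.1 and 22.1 CPM of Kcnmb2 beside 0.684, 0.784, 0.131 and 0.119 CPM of Scn9a. The pore gene it modulates, Kcnma1, stood at no more than 4.33 CPM in any placodal stage, in 1 cKO library of 18 neurons. The small-conductance channel Kcnn1 (1.11 ± 0.17), Kcnb2 (1.80 ± 0.22), the Elk-type channel Kcnh8 (1.77 ± 0.18) and Kcnmb4, another calcium-activated channel subunit (0.74 ± 0.11), rose. Kcnk1 fell further, to 2.4, 0.331, 1.41 and 0 CPM (-3.01 ± 0.35, adjusted p = 3.2e-06). Kcnh1 (0.35 ± 0.17), Kcnc1 (0.15 ± 0.15) and Kcnh2, the Erg channel (0.48 ± 0.24), did not pass. In a list of 30 genes of channel partners and excitability, 5 were not tested over the same step, 16 rose (background 23.4%), 3 fell (27.9%) and 6 did not pass. Among those that changed were Ank3, the anchor of sodium channels at the initial segment (1.84 ± 0.13), Syt1 (3.84 ± 0.25) and the repressor Rest (-3.51 ± 0.22).

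The epibranchial lineage, which gives viscerosensory neurons of the cranial ganglia, moved in the same direction for most of these genes. Of 62 members tested, 40 rose from the early to the late stage (background 29.4%) and 10 fell (28.7%), with a median log2 difference of 1.33 against 0.00. Of the 28 members that rose in the placodal lineage, 24 also rose here, 85.7% of the placodal list and 60% of the epibranchial list, and Kcnk1 and Kcnk12 fell in both. Scn9a rose from 3.01, 2.36, 4.64 and 4.95 CPM to 79.8, 104, 47.5 and 70.9 CPM (4.06 ± 0.20, adjusted p = 4.5e-09). Scn3b, a sodium beta subunit, rose from 0.334, 0.675, 1.16 and 2.12 CPM to 66.2, 65.6, 57.8 and 63.3 CPM (5.42 ± 0.20, adjusted p = 6.5e-10). The late stages were above the early ones in every library for both genes. All 9 calcium auxiliary genes tested rose, with a median of 1.43. Scn7a, a sodium channel without the usual voltage gating, had 0 UMIs in the early stage and 296 in the late stage, at least 72.9-fold higher, and Kcnq3 had 2 and 234 (86.4-fold, counting interval 23.7 to 718).

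The stage step differed between the lineages for 19 of 60 members: 8 rose more or fell less in the epibranchial lineage (background 8.79%) and 11 in the placodal one (10.4%). The steps were unequal in summed neuron-stage markers. These were 8653 to 9264 CPM in early and 25243 to 26965 CPM in late epibranchial cells. In the placodal lineage they were 1237 to 2355 CPM in neuroblasts and 8804 to 12505 CPM in neurons. The part of this inequality in the lineage differences was not tested. Kcnmb2 differed most in the placodal direction (-3.37 ± 0.27, adjusted p = 2.5e-07). Its epibranchial level was 291, 325, 224 and 177 CPM in the early stage and 202, 208, 172 and 141 CPM in the late stage (-0.52 ± 0.06). Kcnab1, a beta subunit of Shaker channels, rose by 4.03 ± 0.20 in the epibranchial lineage and changed by 0.89 in the placodal one without passing (difference 3.38 ± 0.43, adjusted p = 3.5e-05). The small-conductance channel Kcnn3 was a gene of the early epibranchial stage, at 26.4, 49.9, 42.5 and 45.6 CPM, and fell to 8.33, 12.7, 3.14 and 5.51 CPM (-2.36 ± 0.21, adjusted p = 1.1e-06). Kcnn3 had no UMI in placodal neurons of any library. Without control 1 the count of members that rose more in the epibranchial lineage was 4, and without control 2 it was 5, and the 11 of the opposite direction were 6 without control 2.

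**Figure D2:**
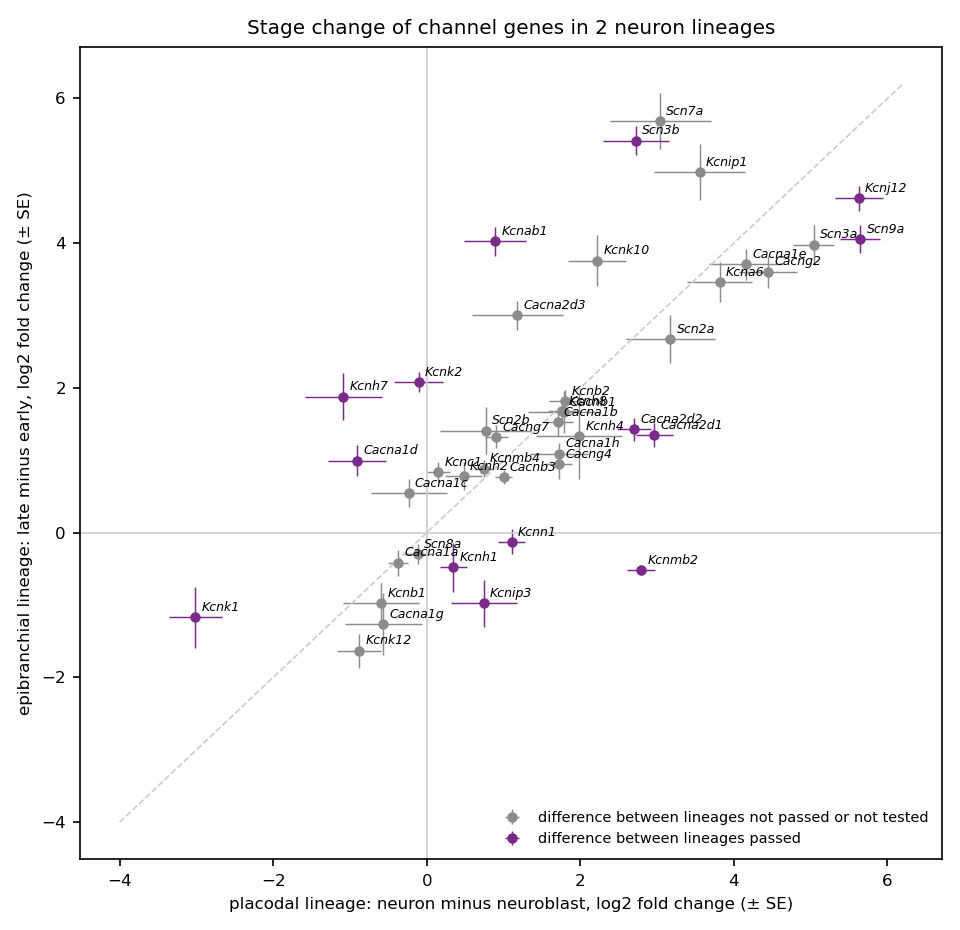
Log2 change from the earlier to the later stage in the placodal lineage (horizontal) against the epibranchial lineage (vertical) with standard errors, for 42 members tested in both, with the members that passed the test of the lineage difference in purple. Scn9a, Kcnj12, Scn3a, Cacng2 and Cacna1e lie far up in both directions, and Kcnmb2 lies at 2.79 horizontally and -0.52 vertically.

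Neuron types of the same libraries carried different channel sets. Late epibranchial neurons held more of most members than placodal neurons: 39 of 57 tested were higher (background 22.1%) and 4 lower (19.6%), with a median log2 difference of 1.43 against 0.01. The summed level of neuron-stage markers also differed, 25243 to 26965 CPM in late epibranchial and 8804 to 12505 CPM in placodal neurons, and its part in the difference was not tested. Scn3b stood at 4.8, 4.31, 0 and 4.33 CPM in placodal neurons and at 66.2, 65.6, 57.8 and 63.3 CPM in epibranchial neurons (3.79 ± 0.18, adjusted p = 1e-10). Cacna2d3, an alpha2-delta subunit, was 0.6, 1.77, 0 and 2.17 CPM in placodal and 37.9, 42.9, 11.7 and 31.4 CPM in epibranchial neurons (4.63 ± 0.24). Kcnn3 had 191 UMIs in late epibranchial neurons and 0 in placodal neurons, at least 42.6-fold higher. These 3 genes separated the types in every library. Kcnma1, the large-conductance calcium-activated pore (4.01 ± 0.41), Kcnq3 (4.49 ± 0.36), Kcnab1 (3.38 ± 0.23) and the mechanosensitive tandem-pore channel Kcnk2 (3.35 ± 0.26) were also higher.

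A few genes ran the other way or did not separate the 2 sensory types. Kcnh1 stood at 16.8, 10.2, 7.05 and 8.67 CPM in placodal and at 3.08, 1.85, 2.69 and 2.66 CPM in late epibranchial neurons (-2.25 ± 0.25, adjusted p = 2e-06), without overlap. Kcnn1 (-0.48 ± 0.18, adjusted p = 0.039) and Kcnmb2 (-0.35 ± 0.12, adjusted p = 0.023) were also lower. Of these, Kcnmb2 was not lower in every library, and the count of 4 lower members was 1 when control 1, control 2 or cKO 2 was left out. Cacna1a (0.03 ± 0.14) and Kcnh8 (0.04) did not pass.

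Neural tube neurons differed from placodal neurons in both directions. Of 45 members tested against placodal neurons, 28 were higher (background 24.2%) and 8 lower (23.3%), with a median of 1.42 against 0.02. The summed neuron-stage markers were 14741 to 16983 CPM in neural tube neurons and 8804 to 12505 CPM in placodal neurons. The part of the markers in this comparison was not tested. Cacna2d3 was the most abundant member in neural tube neurons, at 125, 96.1, 128 and 152 CPM (6.06 ± 0.22 against placodal neurons, adjusted p = 1.4e-11). Scn3a stood at 98.6, 110, 65.2 and 73.2 CPM (2.49 ± 0.14), above placodal neurons in every library. Scn2a, an alpha subunit of central axons, was 35.5, 25, 23.2 and 22.5 CPM (3.55 ± 0.24), and the L-type channel Cacna1d was 17.2, 11.4, 23.8 and 13.1 CPM (2.95 ± 0.32). Kcnh2, Kcnd3 (an A-type channel) and Cacnb4 were higher by 2.55, 3.68 and 4.08 on the log2 scale. Kcnmb2 fell to 6.39, 4.91, 1.68 and 1.05 CPM (-5.84 ± 0.19, adjusted p = 3e-12), and Kcnj12 to 0.798, 0, 1.4 and 0 CPM (-4.37 ± 0.48, adjusted p = 2.9e-06). Late epibranchial neurons held 202, 208, 172 and 141 CPM of Kcnmb2 and 56.4, 58.4, 54.7 and 67.3 CPM of Kcnj12, so neither placode-derived type as a whole overlapped with neural tube neurons. The Hmx1-low cluster of placodal neurons, described below, held a mean of 1.26 CPM of Kcnj12 in the controls, near the neural tube level. Kcnc1 (-2.62 ± 0.22) and Kcnh1 (-2.03 ± 0.29) were lower in neural tube neurons as well.

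Placodal neurons were not uniform. A finer clustering, again without channel genes, divided them into 3 clusters, which were then named by their level of Hmx1, a homeobox gene of part of the ganglion. These were Hmx1-high (81, 166, 17 and 4 cells), Hmx1-low (83, 124, 5 and 9) and Hmx1-intermediate (57, 76, 2 and 5). The division was made on 2000 variable genes and not on Hmx1 alone, and the part of Hmx1 in it was not tested. The highest Scn9a, Scn3a and Kcnj12 levels lay in the intermediate cluster. Scn9a stood at 5.54 and 5.11 CPM in Hmx1-high, 7.78 and 8.83 in Hmx1-low and 89.5 and 110 in Hmx1-intermediate neurons of control 1 and control 2. Scn3a stood at 6.55 and 10.7, 7.18 and 7.29, and 54.4 and 48.1 CPM, and Kcnj12 at 8.56 and 6.28, 0.599 and 1.92, and 45.5 and 78.4 CPM. Kcnmb2 was high in all 3, at 196 and 231, 237 and 249, and 301 and 320 CPM. The intermediate cluster also had the most Stmn2, 4519 CPM over its cells against 1947 in the Hmx1-high and 2237 in the Hmx1-low cluster, and the least of the proliferation marker Mki67, 3.25 against 41.5 and 43.2 CPM. These are descriptions of clusters, with no test.

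Between the Hmx1-high and Hmx1-low clusters of the 2 control libraries, few members differed. Of 23 tested, 2 were higher in Hmx1-high (background 5.82%) and 1 lower (5.42%), with a median of -0.12 against 0.00. Cacna1e stood at 4.53 and 8.37 CPM in Hmx1-high neurons and had no UMI in Hmx1-low neurons, 45 against 0 UMIs and so at least 10.2-fold higher. Kcnj12 was higher by 2.08 ± 0.49 (adjusted p = 0.00047). Cacna1a was lower, at 25.7 and 27.2 against 52.7 and 41.5 CPM (-0.76 ± 0.18, adjusted p = 0.00027). With 1 residual degree of freedom this is a fragile test: DESeq2 called 0 and 0 members.

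The channel transcripts of otic epithelium were led by Kcnk1 at 58.6 ± 0.918 CPM (SD, n = 4), Cacna1a at 21.4, Kcnmb4 at 20.8, Cacnb3 at 19.0 and Kcnq3 at 11.4 ± 9.76. Against placodal neurons, 14 of 73 members tested were higher in otic epithelium (background 33.2%) and 43 lower (27.2%), with a median of -1.30 against 0.07. Kcnk1 (5.68 ± 0.27, adjusted p = 2.7e-12) and Kcnq3 (5.94 ± 0.34, adjusted p = 3.8e-11) had the largest differences among genes that were higher in otic epithelium and had UMIs in both. Placodal neurons held more of the other leading genes, with means of 30.8 CPM of Cacna1a, 32.6 of Kcnmb4 and 39.1 of Cacnb3. Ectoderm-like cells held 57.6, 65.7, 58.2 and 54.4 CPM of Kcnk1 and 0.206, 0, 0 and 0 CPM of Kcnq3. They held means of 67.5 CPM of Cacnb3, 21.6 of Kcnmb4 and 17.5 of Cacna1a. Mesenchyme-like cells held means of 24.0 CPM of Cacna1a and 9.05 of Kcnmb4. Cacnb2 had 1264 UMIs in otic epithelium and 2 in placodal neurons (39.4-fold, counting interval 10.9 to 326). Kcne1, Kcnj2 and Kcnj16 had no UMI in placodal neurons, and were at least 6.87-fold, 5.89-fold and 5.78-fold higher in otic epithelium. The Shaker channel Kcna2 (2.50 ± 0.31) and Cacna1d, the L-type channel of inner hair cells (2.36 ± 0.29), were higher in otic epithelium too. Kcnmb2 (-9.09 ± 0.19), Kcnh1 (-7.41 ± 0.39) and Scn9a (-7.17 ± 0.37) were lowest relative to neurons.

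Single channel genes of otic epithelium changed in both directions in cKO embryos. Of 71 members tested, 15 were higher in cKO (background 20.8% of all genes) and 16 lower (19.4%), shares close to the background, and the median log2 change was -0.07 against -0.02 over all genes. The summed level of all members was 240 to 267 CPM across the 4 libraries. Voltage-gated potassium alpha subunits rose in 8 and fell in 3 of 24, whereas calcium alpha1 subunits fell in 2 of 6, calcium auxiliary subunits in 4 of 9 and inward rectifiers in 2 of 8, with none rising in these 3 families. Without control 1 the 16 that fell were 10.

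The 2 largest rises were of potassium alpha subunits. Kcns3 stood at 0.376 and 0.597 CPM in the controls (27 and 34 UMIs) and at 8.44 and 7.02 CPM in the cKO libraries (365 and 504 UMIs), a log2 change of 4.13 ± 0.21 (adjusted p = 1.1e-05). Kcnc1 stood at 0.445 and 0.386 against 4.12 and 5.96 CPM (3.71 ± 0.24, adjusted p = 3.2e-05). The groups did not overlap for either gene, as for 50 of the 71 members tested and 74.9% of all genes tested. In leukocyte-like cells Kcnc1 had no UMI and Kcns3 had UMIs in a single library (0.501 CPM). Kcnq5, an M-current subunit, stood at 0.334 and 0.333 against 1.78 and 1.99 CPM (2.61 ± 0.24, adjusted p = 0.00019). Kcnh2 rose from 4.64 and 5.09 to 9.87 and 9.19 CPM (1.13 ± 0.11, adjusted p = 0.00023). Smaller rises were those of Kcnk2 (0.64 ± 0.15) and Scn8a (0.55 ± 0.11). Scn9a rose by 2.11 ± 0.40, but from 0.0835 and 0.0702 to 0.37 and 0.334 CPM, below its level in every library of late epibranchial neurons.

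Of the 5 members at 10 CPM or more in otic epithelium, Kcnq3 fell. It stood at 19.1 and 20.6 CPM in the controls and at 3.38 and 2.63 CPM in the cKO libraries (-2.58 ± 0.13, adjusted p = 8.9e-06). Cacna1d fell from 7.84 and 9.53 to 3.42 and 2.84 CPM (-1.31 ± 0.15, adjusted p = 0.00043), and Kcnc2, a relative of Kcnc1, from 1.6 and 2.07 to 0.185 and 0.348 CPM (-2.47 ± 0.31, adjusted p = 0.00075). The alpha2-delta genes Cacna2d2 (-1.68 ± 0.20), Cacna2d1 (-1.27 ± 0.24) and Cacna2d3 (-1.19 ± 0.18) fell together, and so did the A-type channel Kcnd2 (-2.81 ± 0.51) and the auxiliary Kcne3 (-2.61 ± 0.58). The leading otic gene Kcnk1 was level, at 58, 59.1, 57.7 and 59.7 CPM (0.17 ± 0.06, adjusted p = 0.062), and Cacna1a (0.20) and Cacnb3 (0.15) did not pass. In the list of 30 partners, 5 were not tested in otic epithelium, 2 rose (background 20.8%), 11 fell (19.4%) and 12 did not pass. Fgf14, an intracellular modulator of sodium channels, had the largest fall of the list (-5.35 ± 0.50), followed by the leak channel Nalcn (-2.76 ± 0.23). Stac2, an adaptor of L-type calcium channels, rose (2.32 ± 0.34).

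**Figure D3:**
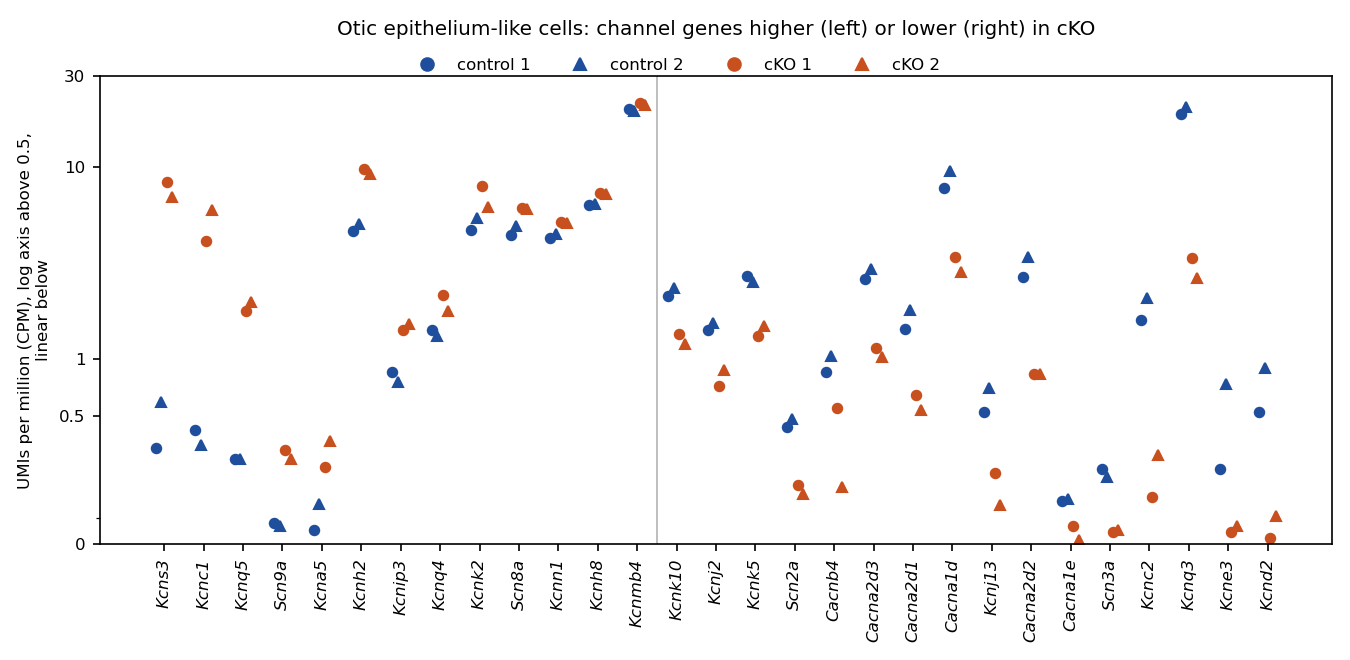
CPM in otic epithelium of 29 members that passed the cKO test (horizontal axis, genes higher in cKO on the left and lower on the right), on an axis that is linear below 0.5 and logarithmic above, with 1 point per library. Kcns3 stands at 0.376 and 0.597 CPM in the controls and at 8.44 and 7.02 CPM in cKO, and Kcnq3 at 19.1 and 20.6 against 3.38 and 2.63 CPM.

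Control and cKO otic cells fell into different clusters, so a change in which otic cells a library held and a change of level within a cell state cannot be told apart for most clusters. Controls made up nearly all cells of clusters 5, 11, 12, 14 and 15 and cKO libraries nearly all of clusters 1, 3, 9 and 10. Kcnq3 was 37.6, 43.3 and 48.1 CPM in clusters 11, 12 and 14 and 1.10 to 7.43 CPM in the other 9. Kcns3 was 10.2, 9.83, 7.56 and 3.82 CPM in clusters 10, 1, 9 and 3 and 0.14 to 1.37 CPM elsewhere. Kcnk1 stood between 50.5 and 69.0 CPM in all 12 clusters. Cluster 21 held cells of all libraries (85, 103, 32 and 80). Within it Kcnh2 stood at 12.6, 11.5, 32.4 and 23.5 CPM (27, 30, 32 and 50 UMIs). Cacna1d stood at 17.7, 17.3, 9.11 and 7.05 CPM (38, 45, 9 and 15 UMIs) and Kcnc2 at 7.47, 14.2, 1.01 and 3.29 CPM (16, 37, 1 and 7 UMIs). The groups did not overlap for these 3 genes, and the share of all genes without overlap in this cluster was not counted. The groups overlapped for Kcnq3, at 6.54, 3.08, 7.09 and 4.70 CPM, and Kcns3 was low in all libraries, at 0.47, 0.38, 1.01 and 1.41 CPM. Cluster 4 also held cells of all libraries (353, 257, 26 and 66). In it Kcnh2 stood at 2.82, 3.62, 5.24 and 9.99 CPM (41, 37, 5 and 26 UMIs), again without overlap. Cacna1d, at 6.05, 6.16, 9.42 and 4.61 CPM, and Kcnc2, at 1.24, 0.881, 1.05 and 0 CPM, overlapped there. No test was made within clusters. The summed mesenchyme markers in otic cells were 60.0 and 47.7 CPM in the controls and 151 and 117 CPM in cKO. Only 1 of the 8 markers reached 10 CPM in any library of these cells, and the part of the markers in these results was not tested.

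In placodal neuroblasts, 4 members rose in cKO (background 16.4%) and 6 fell (15.6%) of 34 tested, with a median of -0.21 against -0.02. Kcnmb2 stood at 38.4 and 51.4 CPM in the controls and at 14.7 and 15.8 CPM in the cKO libraries (-1.45 ± 0.15, adjusted p = 7.6e-05). Kcnc1 fell from 21.7 and 23.1 to 11.3 and 10.3 CPM (-0.95 ± 0.13, adjusted p = 0.00053), and Kcnb2 from 5.9 and 7.6 to 2.68 and 2.63 CPM (-1.22 ± 0.23, adjusted p = 0.0035). The groups did not overlap for these 3 genes, as for 25 of the 34 members tested and 68.2% of all genes tested. Kcnh1 (-0.79 ± 0.17), Cacng4 (-1.17 ± 0.29) and Kcnh7, an Erg-type channel (-1.34 ± 0.45), fell as well. Of the genes named above as rising from otic epithelium to neuroblast, Kcnmb2, Kcnh1, Kcnb2 and Kcnc1 fell in cKO neuroblasts, while Kcnk12 (0.21, adjusted p = 0.51), Cacna1g (-0.04, adjusted p = 0.96) and Cacna1a (-0.32, adjusted p = 0.14) did not pass. The summed neuron-stage markers of these neuroblasts were 2089, 2355, 1237 and 1252 CPM and Hmx1 was 185, 233, 16.4 and 25.5 CPM, both lower in cKO, and their part in the channel changes was not tested.

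Kcns3 rose in neuroblasts as in otic epithelium: the controls had 1 UMI together and the cKO libraries 43 and 53 UMIs, 4.12 and 4.49 CPM, a ratio of 95.5 with a counting interval of 16.7 to 3811. Kcnk1 rose from 9.35 and 8.28 to 15.4 and 14.5 CPM (0.85 ± 0.15, adjusted p = 0.0021), Scn2b by 1.72 ± 0.49 (adjusted p = 0.022, from 4 and 2 UMIs to 10 and 13) and Cacna1h by 1.12 ± 0.39 (adjusted p = 0.049). The share of epithelial neuroblasts among neuroblasts differed as well, 63 of 407 and 52 of 354 in the controls against 83 of 281 and 112 of 353 in cKO. Control and cKO ganglion neuroblasts fell in part into different clusters. At Leiden resolution 2, cluster 9 (167 CPM of Hmx1) held 244, 190, 26 and 26 cells, cluster 14 (220.1 CPM) 95, 112, 85 and 76, and cluster 26 (1.75 CPM) 1, 0, 97 and 153. A change in which neuroblasts a library held and a change of level within a cell state therefore cannot be told apart. Within ganglion neuroblasts alone, tested after the data were seen, 6 of 32 members fell (background 12.7%) and 1 rose (14.3%). Kcnmb2 (-1.19 ± 0.14), Kcnc1 (-0.89 ± 0.13) and Kcnb2 (-1.19 ± 0.25) fell there too, Kcns3 rose, and Kcnk1, at 5.67, 4.81, 7.08 and 8 CPM, did not pass. Within epithelial neuroblasts alone, 12 members were tested, of which Kcns3 rose (3.14 ± 0.65, background 8.07%) and Cacna1a fell (-0.65 ± 0.21, background 7.12%). The count of 4 that rose in neuroblasts was 2 with any 1 library left out.

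**Figure D4:**
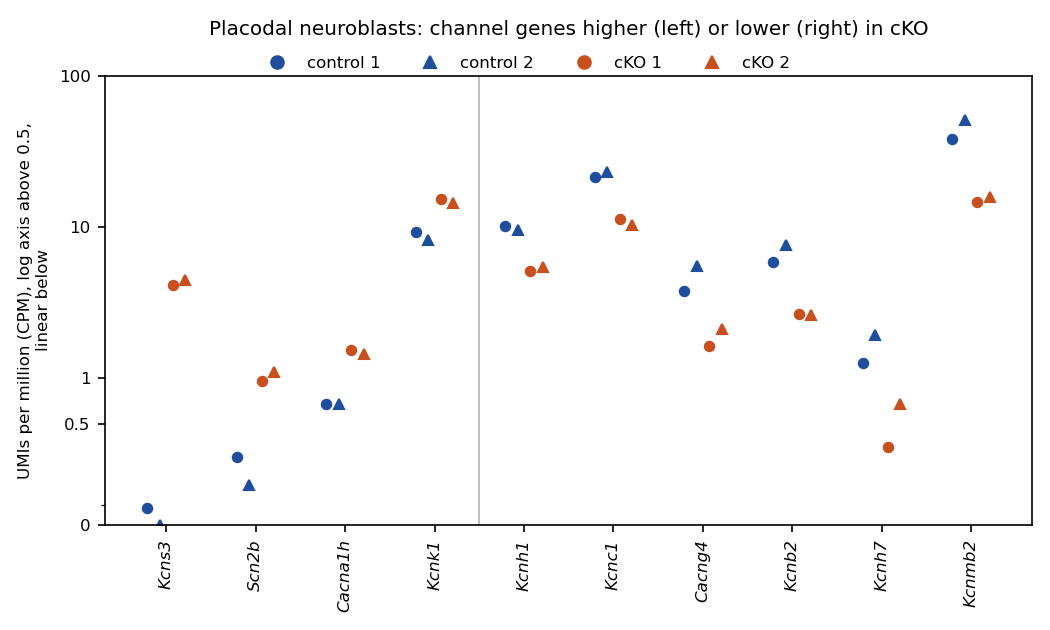
CPM in placodal neuroblasts of the 10 members that passed the cKO test (genes higher in cKO on the left, lower on the right; linear below 0.5, logarithmic above), with 1 point per library. Kcns3 is near 0 in both controls and above 4 in both cKO libraries, and Kcnmb2 is lower in both cKO libraries.

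Over the whole placodal lineage, 22 of 44 members fell in cKO (background 19%) and 4 rose (18.2%), with a median of -0.63 against -0.02. The count of 4 that rose was 2 with any 1 library left out and 2 by DESeq2. The cKO libraries held 25 and 18 cells of the neuron stage against 221 and 366, so that a smaller share of neurons and less RNA per cell cannot be told apart in these sums. The genes with the largest falls were neuron-stage genes: Scn3a (-3.83 ± 0.36), Kcnj12 (-3.11 ± 0.47), Scn3b (-2.83 ± 0.50) and Scn9a (-2.80 ± 0.35). In the few cKO neurons, Scn9a stood at 14.1 and 47.7 CPM (10 and 22 UMIs) against 28.8 and 30.9 in controls, and Kcnj12 at 5.64 and 21.7 against 15.8 and 22.1. The groups overlapped for Scn9a and Kcnj12, and also for Scn3b at its neuron levels given above. They did not overlap for Scn3a, which was lower in both cKO libraries at its neuron levels given above. The cKO sums rest on 25 and 18 neurons. A test of cKO against control was not made in the neuron stage because cKO 2 held fewer than 20 cells.

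In the epibranchial lineage, 27 of 63 members fell in cKO (background 13%) and 0 rose (12.1%), with a median of -0.58 against -0.01. At an unadjusted p under 0.05, 35 members changed in either direction, and without the low-count filter 3 rose. The summed mesenchyme markers of the epibranchial lineage were 60.7 and 48.1 CPM in the controls and 175 and 132 CPM in cKO (102 and 62.4 against 213 and 179 CPM in early cells, 46.7 and 41.6 against 86.1 and 80.8 CPM in late cells). Of the 8 markers, 2 reached 10 CPM in any library of the lineage or its early cells and 1 in late cells. The part of the markers in these results was not tested. The late stage made up 185 of 295 and 165 of 281 cells in the controls and 57 of 220 and 143 of 353 cells in cKO. The count of 27 depended on the controls, and was 13 without control 1 and 9 without control 2. Within one stage, tested after the data were seen, fewer passed: 6 of 34 members fell in early cells (background 3.98%) and 7 of 56 in late cells (4.79%). In neither stage did a member rise (background 3.45% and 5.08%).

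Within late epibranchial neurons, Scn3a stood at 59.1 and 68.1 CPM in the controls and 31.8 and 34.6 CPM in cKO (-0.82 ± 0.13, adjusted p = 0.0052). Cacna1a stood at 38.7 and 41.4 against 21.1 and 20.3 CPM (-0.85 ± 0.14, adjusted p = 0.0061), and Cacna2d2 at 23.2 and 29.2 against 13.4 and 10.45 CPM (-1.07 ± 0.20, adjusted p = 0.011). Their groups did not overlap, as for 35 of the 56 members tested and 59.1% of all genes tested. Scn7a (-1.04 ± 0.27), Kcnab1 (-0.84 ± 0.17) and Kcnk2 (-0.66 ± 0.16) also fell. Scn9a, at 79.8, 104, 47.5 and 70.9 CPM, and Scn3b, at 66.2, 65.6, 57.8 and 63.3 CPM, were lower in both cKO libraries and did not pass within this stage. In early cells Cacng4 fell from 24.7 and 31.7 to 10.2 and 8.67 CPM (-1.48 ± 0.22, adjusted p = 0.0021), with Kcnmb2 (-0.54 ± 0.13), Cacna2d1 (-0.69 ± 0.14) and Cacna2d2 (-1.29 ± 0.30).

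The response to the deletion differed between otic epithelium and the placodal lineage for 17 of 74 members, 15 with the higher change in otic epithelium (background 7.63%) and 2 with the higher change in the lineage (7.96%). The count of 15 was 8 without control 2, 8 without cKO 1 and 9 without cKO 2, and DESeq2 called 6. With neuroblasts in place of the whole lineage, a comparison chosen after the data were seen that leaves out the scarce neurons, 5 of 61 differed, 4 (background 4.23%) and 1 (5.42%). Kcnc1 had opposite changes: it rose by 3.71 ± 0.24 in otic epithelium and fell by 0.95 in neuroblasts (difference 4.57 ± 0.25, adjusted p = 1.5e-07). Scn9a (3.53, adjusted p = 0.018), Cacng4 (1.44, adjusted p = 0.0042), Cacna1a (0.48, adjusted p = 0.041) and Kcnk1 (-0.73, adjusted p = 0.0023) were the others. Kcns3 rose in both and was not among them.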

How the data were processed

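The deposited matrices hold raw UMI counts per gene and cell barcode, one matrix per library, written by Cell Ranger 6.0.1 per the file headers. Per the submitters' processing notes, the tools were FastQC 0.11.4, Cell Ranger 3.1.0 (another version than in the headers) and Seurat 4.1.0, on mm10. Libraries were prepared with the Chromium 3′ v3.1 kit, per the labels' protocols. Gene positions came from GENCODE vM21, of the same build.

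Cells with at least 1000 genes and at most 10% mitochondrial UMIs were kept. Scrublet's own threshold called 17, 2, 12 and 11 doublets, too few to have worked, so the highest scores were removed at 0.8% per 1000 barcodes (154, 160, 124 and 148 cells). Cells were clustered in scanpy 1.11.5 on 2000 variable genes, 30 components and 20 neighbours at Leiden resolution 1, and at resolution 2 for Hmx1 types. The thresholds that name classes and stages were settled after the clusters were seen. Counts were summed per library and class, filtered with filterByExpr, scaled by TMM and tested with edgeR 4.0.16 (R 4.3.3, quasi-likelihood, two-sided, adjusted p under 0.05). The library was a block where classes of the same libraries were compared. Tests of cKO and of Hmx1 types took only classes with at least 20 cells in each library used. Other comparisons of stages and classes had no such minimum, and those with placodal neurons included the sum of 18 neurons in cKO 2. A fold against a group with 0 UMIs was computed at a floor of 3 UMIs over that group, and such bounds and the counting intervals (95%) cover counting error only. List medians with these genes at their bounds were the same to 2 decimals. With 2 libraries a group, the smallest p of an exact two-sided permutation of a single value is 0.333.

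In each comparison the text names members past the threshold with the 12 largest rises and 12 largest falls that held in every library (or whose groups did not overlap), and the 3 members with most UMIs in each family. Members, families, partner genes and comparisons were chosen with earlier results of these data known. Some genes are counted but not reported here by name, and are not drawn.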

Additional observations from a re-analysis of the deposited data

Results flagged for a closer look

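The change from neuroblast to neuron, or from early to late stage, differed between the epibranchial and placodal lineages by an interaction test (edgeR, adjusted p under 0.05) for 19 members. The steps were unequal in neuron-stage markers, as given above, and the part of this in the differences was not tested. For those reported here the difference, epibranchial minus placodal on the log2 scale, was 5.31 for Kcnq3, 3.38 for Kcnab1, 2.79 for Kcnq5, 2.47 for Kcnk2, 2.36 for Scn3b, 2.34 for Kcnh7, 2.03 for Kcnk1 and 1.50 for Cacna1d. It was -0.88 for Kcnk9, -1.05 for Kcnh1, -1.08 for Kcnj12, -1.25 for Cacna2d2, -1.28 for Kcnn1, -1.50 for Scn9a, -1.65 for Cacna2d1, -1.75 for Kcnip3, -2.76 for Kcnh3 and -3.37 for Kcnmb2. Scn9a, Kcnj12, Cacna2d1 and Cacna2d2 rose in both lineages, and their differences are of size and not of direction. Kcnk9 had no UMI in placodal neuroblasts, and Kcnq3 had 2 UMIs in early epibranchial cells and Kcnq5 2 in placodal neurons, so their fitted differences depend on the prior count and give no size.

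The cKO response differed between otic epithelium and the whole placodal lineage, by the same kind of test, for 17 members. For those reported here the difference, otic minus placodal on the log2 scale, was 4.75 for Kcnip1, 4.73 for Scn9a, 4.57 for Kcnc1, 3.15 for Kcnj12, 2.75 for Kcna6, 2.25 for Cacng4, 1.44 for Kcnip3, 1.35 for Kcnh8, 1.17 for Kcnk10, 1.03 for Kcnn1, 0.94 for Cacna1b, 0.81 for Kcnh2, 0.67 for Cacnb3, 0.55 for Kcnmb4, -1.25 for Kcnk1 and -1.30 for Cacnb2. Kcnip1 had no UMI in the placodal lineage of the cKO libraries, so its value gives no size either. The placodal lineage of the cKO libraries held 25 and 18 neurons against 221 and 366 in the controls, and the part of this in these differences was tested only by using neuroblasts in its place, where 5 members differed.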

How the results depend on the processing

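Counts of members are given as higher or lower under each comparison's first-named group. Without the low-count filter 3 members rose in the epibranchial cKO comparison (0 with it). DESeq2 called fewer members: in cKO, 8 fell in otic epithelium, 2 rose in the placodal lineage, and 2 rose and 3 fell in neuroblasts. It called 2 falls from neuroblast to neuron, 5 from early to late epibranchial stage, 1 member lower in epibranchial than placodal neurons, 0 and 0 between Hmx1-high and Hmx1-low neurons, and 6 and 1 for the difference in cKO response. At clustering resolution 0.5, 2 members rose in the placodal lineage and 2 in neuroblasts. With members among the variable genes 2 rose in the placodal and 1 in the epibranchial lineage. Without doublet removal 2 rose in the placodal lineage and 2 were lower in Hmx1-high neurons. The cause of these differences was not tested.

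With the replicate number as a block, the cKO comparisons called 15 up and 15 down in otic epithelium, 2 and 22 in the placodal lineage, 2 and 28 in the epibranchial lineage and 3 and 6 in neuroblasts. The numbers did not pair the libraries (correlation of same-numbered deviations 0.0453, -0.0148 and 0.0666 in the 3 classes, -0.107 over all cells), and the crossed pairing, added after the data were seen, called 15 and 15, 3 and 22, 1 and 28, and 3 and 5.

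With 1 library left out, cKO counts up and down ranged from 10 to 12 and 10 to 14 in otic epithelium, 2 to 2 and 18 to 24 in the placodal lineage, 0 to 2 and 9 to 30 in the epibranchial lineage, and 2 to 2 and 4 to 7 in neuroblasts. They ranged from 23 to 29 and 2 to 4 for neuron minus neuroblast, 38 to 41 and 5 to 9 for late minus early stage, 28 to 40 and 1 to 4 for epibranchial minus placodal neurons, 8 to 15 and 1 to 2 for the difference in cKO response, and 4 to 8 and 6 to 9 for the difference in stage change.

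Alternatives within one stage, added after the data were seen and with fewer cells, called 6 members down in early and 7 in late epibranchial cells, 1 up and 6 down in ganglion neuroblasts, 1 and 1 in epithelial neuroblasts, and 4 and 1 for the cKO response against neuroblasts. Some genes changed sign in them. Cacnb3 (0.0058) and Cacng7 (0.0015) did so in ganglion neuroblasts, Kcnc1 (0.38) in epithelial neuroblasts, Scn9a (0.86) and Cacna1e (0.97) in early and Cacna2d1 (0.31) and Cacna1e (0.12) in late epibranchial cells. Cacna1b (-0.080) and Kcnk10 (-0.43) did so for the cKO response against neuroblasts. No named gene changed sign under any other setting run. The Hmx1 comparison could not be run with a library left out or at other resolutions, since it needs both control libraries and the finer clusters. The cKO comparison of placodal neurons was not run, with 18 cells in cKO 2, and epithelial neuroblasts, with 52 to 112 cells a library, passed only 12 members through the low-count filter.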
